A study of Rattus norvegicus with 12 samples.

Results

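The interaction of lipopolysaccharide (LPS) and hypobaric hypoxia was measured in cells of bronchoalveolar lavage fluid (BALF) of rats. It was computed for each probe set on log2 intensity as the effect of hypoxia in rats given LPS, COMB minus LPS, less the effect of hypoxia in rats not given LPS, HPO minus CTL. All 12 arrays of the series enter this difference. A probe set was tested when 3 or more arrays showed it brighter than their 20th percentile, which held for 25692 of 31099 probe sets, and these represented 12853 of 14217 named genes. A value of 0 means that both exposures together gave the level expected from the 2 single effects added on the log2 scale, that is, from their fold changes multiplied. A gene above 0 was more than additive and a gene below 0 less than additive in this sense, and 1 log2 unit is a 2-fold departure.

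The rats were male Sprague-Dawley rats of 8 weeks, kept without food and water during the experiment. CTL rats were naive, breathed normal air and received saline into the tail vein. LPS rats received 0.5 mg/kg LPS by the same route at normal pressure. HPO rats stayed for 6 h in a decompression chamber at 405.35 mmHg, which corresponds to 5000 m or 11.2% oxygen, and the sources used here do not say whether they were injected. COMB rats received 0.5 mg/kg LPS and then entered the chamber for 6 h. Each group had 3 arrays, each of 1 RNA pool. The labels give 3 rats for 10 of the pools and 2 rats for the COMB pools of rats 2 and 3 and of rats 10 and 11, so the p values measure the spread between pools and not between single rats. Each pool is called by its rat numbers.

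LPS of bacteria is bound by LBP and CD14 and handed to TLR4, which activates NF-kB and with it the genes of cytokines, chemokines and the inhibitors that later end the response. Low oxygen stabilizes HIF proteins, which raise the genes of glycolysis, glucose uptake and vessel growth. Most BALF cells of a healthy rat are alveolar macrophages, which clear surfactant lipid and sense microbes, while neutrophils and lymphocytes enter the airspace in inflammation.

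Single pools stood apart from their groups. The CTL pool of rats 5, 6 and 7 was high in inflammatory genes, with Il1b at 1553 against 138 and 167 in the other CTL pools. The COMB pool of rats 2 and 3 was low in lymphocyte genes, with Cd3e at 213 against 1319 and 762 in the other COMB pools, and 327 probe sets of this pool lay over 2-fold from its group mean. The HPO pool of rats 3, 5 and 12 also deviated, by 0.225 log2 units (root mean square) from its group mean. This was 0.146 and 0.171 in the other HPO pools, 0.209 in that CTL pool and 0.277 in that COMB pool. Within groups the arrays correlated at 0.976 to 0.994, and their median intensities lay between 32.72 and 35.61. Of 16 alveolar macrophage markers 13 were measured. Their sums lay between 29310 and 32440 in CTL, 30970 and 33290 in LPS, 30780 and 30850 in HPO and 27340 and 30080 in COMB.

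LPS and hypoxia together raised 20 genes beyond the sum of their single effects and lowered 3 below it. These were 0.156% and 0.0233% of the genes tested (limma, Benjamini-Hochberg adjusted p under 0.05). Among probe sets, 23 were called higher (0.0895%) and 12 lower (0.0467%), of which 8 name several genes or none. The higher genes were led by the cytokines Il1a, Ccl20, Csf3 and Tnf, the RNase gene Zc3h12a, the heparan sulfate enzyme gene Hs3st1 and the receptor gene Tlr2. The lower genes were the peptidase gene Lap3, the zinc finger gene Zbtb34 and the acetyltransferase gene Nat1. Many more genes departed from the sum in size alone. An interaction of at least 2-fold, with no test, was found for 621 probe sets upward (2.42%) and for 75 downward (0.292%), and the calls took in 17 and 6 of them. The median standard error was 0.17 for the called probe sets and 0.49 for those past 2-fold that were not called. At an unadjusted p under 0.05, 1082 genes were higher (8.42%) and 668 lower (5.2%), and the median interaction over all genes was 0.01.

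**Figure D1:**
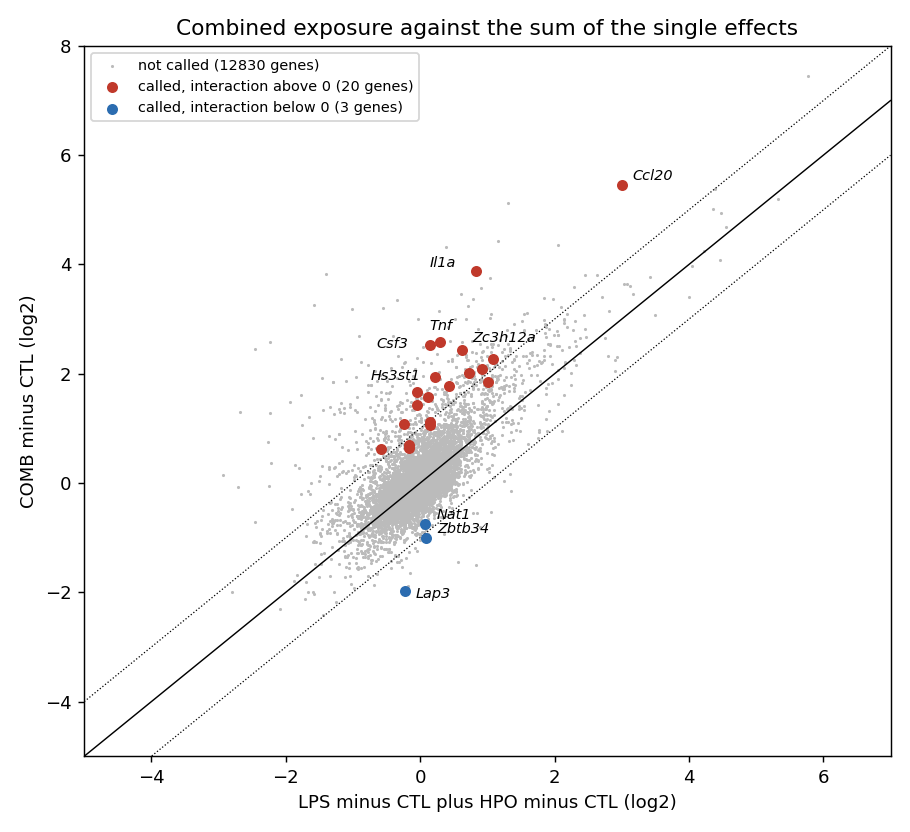
Each point is 1 of 12853 genes, with the sum of the LPS and HPO effects against CTL on the x axis and the COMB effect against CTL on the y axis (both log2). The solid line is additivity and the dotted lines lie 1 log2 unit from it. The 20 called genes above the line all had COMB above CTL, and the 3 called genes below it had COMB below CTL.

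In all 20 higher genes COMB exceeded CTL, and in all 3 lower genes it was under CTL, so each departed further from control than the sum, and no call was a response that fell short of the sum. The 3 COMB arrays were above the other 9 arrays for 20 of the 20 higher genes (7.05% of all genes) and below them for all 3 lower genes (6.75% of all genes). Selection by the interaction on the same arrays largely fixes these orders, and the calls in COMB against CTL, so they are given as a description. Of the 20 higher genes, 8 were also called in LPS against CTL (2.78% of all genes), 0 in HPO against CTL (0.0311%) and 20 in COMB against CTL (22%). For 11 of the 20, hypoxia had an effect of opposite sign with and without LPS, as it had for 35.9% of all genes. The interaction is the difference of these effects, so selection by it favors opposite signs, and this count too is only a description. Hypoxia alone moved 4 genes past the test.

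The calls were sensitive to single pools. Leaving out the COMB pool of rats 2 and 3 gave 444 probe sets higher and 199 lower, with all 23 and 12 of the original calls among them, and leaving out that of rats 12, 13 and 14 gave 182 and 40. Leaving out the CTL pool of rats 5, 6 and 7 gave 8 and 1, with 6 and 1 of the original calls. The omission of the CTL pool of rats 8, 9 and 10, of any LPS pool, of the HPO pools of rats 7, 8 and 9 or of rats 2, 4 and 11, or of the COMB pool of rats 10 and 11 gave 2 to 10 higher and 0 to 4 lower calls. That of the CTL pool of rats 1, 3 and 4 gave 30 and 6, and that of the HPO pool of rats 3, 5 and 12 gave 33 and 29. Ccl20 and Hs3st1 were called whichever array was left out, and Zc3h12a in 10 of 12 omissions. The interaction of each of the 23 called genes kept its sign in all 12 omissions. Of the 56 genes named here that were not called with all arrays, 20 passed when COMB rats 2 and 3 were omitted. They included Ccl2, Ccl3, Ccl4, Ccl5 and Birc3 upward and Heph, Sh3bgrl1, Angpt1 and Tlr8 downward. Over all 12853 genes that omission called 297 higher and 103 lower. By list, it called 7 of 11 CC chemokines and 6 of 20 interleukins and TNF family cytokines higher. It also called 6 of 35 interferon-related genes and 5 of 15 genes of MHC class I peptide supply higher, and 1 of the last list lower. Leaving out CTL rats 5, 6 and 7 instead called 1, 2, 0 and 0 genes of these lists higher, in the same order, and 0 lower. All genes then gave 8 higher and 0 lower calls. The median was then 2.03 for CC chemokines and 0.72 for interleukins and TNF family cytokines.

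Il1a encodes interleukin-1 alpha, an alarm cytokine of macrophages and dying cells. Its intensity was 51.0, 147 and 81.55 in the CTL pools, 261, 277 and 248 in LPS, 49.9, 51.8 and 46.2 in HPO and 961, 1608 and 1312 in COMB. All COMB pools were above every other pool, and the HPO pools lay near the lowest CTL pool. The single effects predicted 152 in COMB, and the level was 8.26 times that, an interaction of 3.05 ± 0.42 (SE, 95% interval 2.14 to 3.95, adjusted p = 0.0206). Omitting the CTL pool of rats 5, 6 and 7 gave 2.65 (adjusted p = 0.0116), and Il1a was called in 5 of 12 omissions. A second probe set of Il1a gave 2.02 (adjusted p = 0.0603).

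Ccl20 encodes the chemokine that draws CCR6-bearing lymphocytes and dendritic cells to mucosa. Its intensity was 35.9, 29.8 and 32.4 in CTL, 233, 211 and 193 in LPS, 45.7, 33.8 and 46.6 in HPO and 1590, 1470 and 1357 in COMB. The groups CTL and HPO overlapped, LPS stood above both and COMB above LPS. The single effects predicted 269, and COMB was 5.45 times higher, an interaction of 2.45 ± 0.19 (SE, 95% interval 2.04 to 2.86) with the lowest adjusted p of all probe sets (5.45e-04). Leaving out single arrays moved it between 2.30 and 2.53.

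Csf3 encodes G-CSF, the growth factor that releases neutrophils from bone marrow. Its intensity lay between 13.3 and 20.7 in CTL, 19.3 and 23.6 in LPS and 14.98 and 17.2 in HPO, so that these groups lay close together near the low end of the array. It was 69.4, 131 and 127 in COMB. Neither single exposure passed the test (adjusted p = 0.649 for LPS and 0.93 for HPO), and the interaction was 2.38 ± 0.31 (SE, adjusted p = 0.0206), called in 5 of 12 omissions.

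Tnf, the gene of tumor necrosis factor, stood at 46.1, 68.55 and 59.8 in CTL, 96.1, 109.5 and 92.2 in LPS, 52.0, 29.0 and 45.45 in HPO and 243, 354 and 485 in COMB. Levels in COMB were above all others, at 4.85 times the prediction of 70.8 (interaction 2.28 ± 0.36 SE, adjusted p = 0.0396). This value belongs to the brighter of 2 probe sets of Tnf. The other gave 0.15 ± 0.19 (SE, adjusted p = 0.818), and the gene was called in 4 of 12 omissions, so its interaction is uncertain.

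**Figure D2:**
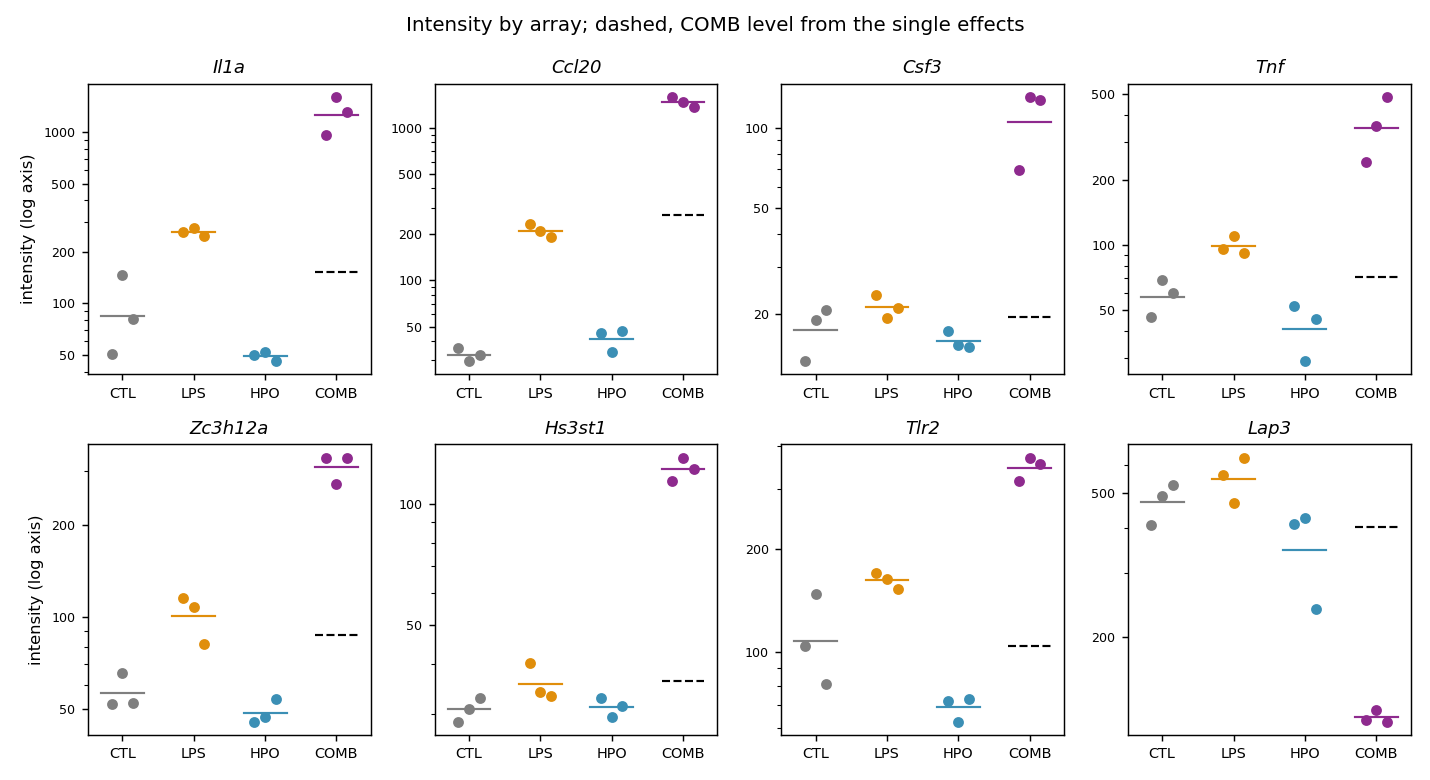
Each point is the intensity of 1 array on a log axis, for 8 called genes in the 4 groups, with a bar at the mean of the logs. The dashed line is the COMB level that the single effects predict, which the COMB arrays exceeded for 7 genes and fell under for Lap3.

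The promoters of the called genes with the highest and lowest interaction are shown for their sequence context. RefSeq (build GRCr8) held promoters for 20 of the 23 called genes, Csf3 not among them. The 250 bases before the annotated start are given 5′ to 3′ on the strand of the gene, for Il1a (chr3:136990018-136990267, minus strand), Ccl20 (chr9:91836909-91837158, plus strand), Tnf (chr20:3626435-3626684, plus strand), Lap3 (chr14:69839892-69840141, minus strand) and Zbtb34 (chr3:37123759-37124008, minus strand). Capitals mark a match to any of 4 motifs on either strand.
Il1a: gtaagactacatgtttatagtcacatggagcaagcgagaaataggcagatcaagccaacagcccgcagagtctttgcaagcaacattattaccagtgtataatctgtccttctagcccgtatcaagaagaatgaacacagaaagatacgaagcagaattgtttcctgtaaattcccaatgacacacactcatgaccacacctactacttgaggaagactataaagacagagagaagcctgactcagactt
Ccl20: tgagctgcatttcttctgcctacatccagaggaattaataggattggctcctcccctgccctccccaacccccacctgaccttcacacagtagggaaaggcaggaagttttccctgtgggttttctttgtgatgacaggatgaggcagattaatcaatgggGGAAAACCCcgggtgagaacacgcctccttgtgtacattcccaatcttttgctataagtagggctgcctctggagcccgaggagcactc
Tnf: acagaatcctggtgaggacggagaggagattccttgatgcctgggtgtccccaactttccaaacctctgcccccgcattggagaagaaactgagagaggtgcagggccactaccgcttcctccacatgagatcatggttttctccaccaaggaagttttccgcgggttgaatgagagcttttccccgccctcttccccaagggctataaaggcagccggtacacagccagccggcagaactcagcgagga
Lap3: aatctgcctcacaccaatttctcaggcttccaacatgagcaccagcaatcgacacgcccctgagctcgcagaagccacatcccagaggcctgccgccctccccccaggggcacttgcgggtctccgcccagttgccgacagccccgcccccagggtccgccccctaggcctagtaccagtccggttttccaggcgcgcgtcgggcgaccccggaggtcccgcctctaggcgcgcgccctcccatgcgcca
Zbtb34: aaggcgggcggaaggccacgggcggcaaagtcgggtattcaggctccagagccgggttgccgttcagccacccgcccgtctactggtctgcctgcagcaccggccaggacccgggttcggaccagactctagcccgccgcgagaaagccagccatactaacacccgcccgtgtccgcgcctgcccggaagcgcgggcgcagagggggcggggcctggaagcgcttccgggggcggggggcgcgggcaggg
The letters GGNNTTTCC, part of the motif that NF-kB binds, were found in the window of Ccl20, 89 bases before the start on the opposite strand. They occurred in 1 of 18 windows of higher genes (5.56%), in 5.18% of all 27457 promoters and in 5.35% of the 10627 promoters of measured genes. The HIF core ACGTG was in 2 of the 18, Ezr and Crb3 (11.1%, against 16.9% of all), with both strands matched at overlapping positions. The heat shock element GAANNTTC was in Tlr2 (5.56%, against 7.02%) and the interferon response letters TTCNNTTTC in Fam107a (5.56%, against 7.99%). Among promoters of measured genes the shares were 21.7% for the HIF core, 4.96% for the heat shock element and 6.35% for the interferon response letters. Neither window of the lower genes held any of these letters.

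Most other chemokines and cytokines did not pass the test, some of them with large interactions. Counts of a list at an unadjusted p under 0.05, here and below, stand beside 8.42% higher and 5.2% lower over all genes. Of 11 CC chemokines measured, 1 was called, and 8 were higher (72.7%) and 0 lower at an unadjusted p under 0.05. Their median was 2.45. Ccl2, the monocyte chemokine, was 28.05, 196 and 32.3 in CTL, 25.7, 120 and 48.5 in LPS, 22.1, 29.1 and 16.9 in HPO and 311, 1493 and 1163 in COMB. Its COMB pools were above all others, and its interaction was 5.22 ± 1.08 (SE, adjusted p = 0.0809). Among chemokines of monocytes and T cells, the interaction was 2.46 for Ccl3 (adjusted p = 0.09), 3.04 for Ccl4 (adjusted p = 0.0629) and 3.09 for Ccl5 (adjusted p = 0.181). Each of them was higher in COMB than in LPS in the test of that pair (adjusted p = 0.00518, 0.00304 and 0.00345). Ccl17, a dendritic cell chemokine, had 1.44 (adjusted p = 0.198).

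Of 8 neutrophil chemokines and growth factors, 1 was called and 4 were higher (50%) at an unadjusted p under 0.05. Their median was 1.33. Cxcl2, a neutrophil attractant, was 61.0, 2016 and 118 in CTL, 305, 449 and 179 in LPS, 52.3, 53.9 and 113 in HPO and 1229, 3725 and 2846 in COMB. The CTL pool of rats 5, 6 and 7 reached the range of COMB, and its omission moved the interaction from 4.84 (adjusted p = 0.181) to 3.32 (adjusted p = 0.156). Of 20 interleukins and TNF family cytokines, 2 were called and 11 were higher (55%) at an unadjusted p under 0.05. Their median was 0.96. Il1b was 138, 1553 and 167 in CTL, 841, 819 and 682 in LPS, 129, 77.9 and 85.0 in HPO and 2206, 3903 and 3301 in COMB. Its interaction of 3.76 (adjusted p = 0.139) became 2.64 without that CTL pool and then passed (adjusted p = 0.0299). Spp1, which encodes osteopontin, had 3.01 (adjusted p = 0.198). Ccl2, Cxcl2, Birc3, Cd3e, Hspa1a, Hsph1 and Cidec, here and below, were chosen after their values were seen.

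Receptors differed among themselves. Of 24 Toll-like receptors, co-receptors and adaptors, 1 was called higher. At an unadjusted p under 0.05, 7 were higher (29.2%) and 1 lower (4.17%), against 8.42% and 5.2% of all genes. Their median was 0.18. Tlr2, the receptor of bacterial lipopeptides, was 104, 148 and 80.6 in CTL, 170.3, 164 and 153 in LPS, 72.1, 62.8 and 72.9 in HPO and 315, 369 and 354 in COMB. The HPO pools lay under every CTL pool (adjusted p = 0.225) and the COMB pools above every LPS pool, an interaction of 1.72 ± 0.25 (SE, adjusted p = 0.0261) that was called in 6 of 12 omissions. Tlr4, the LPS receptor, stayed near additivity at 0.27 ± 0.16 (SE, 95% interval -0.08 to 0.62, adjusted p = 0.54), with 413, 410 and 443 in CTL, 563, 523 and 487 in LPS, 391, 308 and 353 in HPO and 500.2, 482 and 594 in COMB. LPS and COMB overlapped for Tlr4, and its whole interval lay within 2-fold of additivity. It was 0.18 without HPO rats 2, 4 and 11 and also without COMB rats 12, 13 and 14. Cd14, the co-receptor of LPS, had 0.30 (95% interval -0.51 to 1.10, adjusted p = 0.808), and this became -0.0023 without the CTL pool of rats 5, 6 and 7. Lbp, which carries LPS, had 1.52 (adjusted p = 0.0938) and passed in COMB against LPS (adjusted p = 8.77e-04). Tlr1, the partner of Tlr2, had 2.08 (adjusted p = 0.303) and rested on low levels and on 1 CTL pool, with 1.22 without it. Tlr8, a receptor of RNA, went the other way at -0.79 (adjusted p = 0.194).

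The list of NF-kB feedback inhibitors also holds the NF-kB subunit genes Nfkb2 and Relb. All its measured genes had values above 0, down to 0.00775 ± 0.125 (SE) for Tnip2. Of 17 measured, 1 was called. At an unadjusted p under 0.05, 13 were higher (76.5%, against 8.42% of all genes) and 0 lower, and the median was 0.98. Zc3h12a encodes Regnase-1, an RNase that degrades cytokine mRNAs. Its intensity was 51.9, 65.7 and 52.2 in CTL, 115.5, 108 and 81.6 in LPS, 45.5, 47.0 and 53.8 in HPO and 331, 272 and 330.2 in COMB. The COMB pools were at least 2-fold above the highest LPS pool, and the interaction was 1.82 ± 0.21 (SE, adjusted p = 0.0135). Birc3, an inhibitor of cell death, had 3.15 (adjusted p = 0.0872), with 242 in the CTL pool of rats 5, 6 and 7 and 201 to 402 in COMB. Nfkbia, the classic inhibitor of NF-kB, had 0.66 (95% interval -0.15 to 1.46, adjusted p = 0.51). Without the COMB pool of rats 2 and 3, 10 of the 17 were called higher, beside 297 of all 12853 genes. Without the CTL pool of rats 5, 6 and 7 the median was 0.91. Then 1 was called and 12 were higher at an unadjusted p under 0.05, beside 8 and 906 of all genes.

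The remaining called genes are not known mainly as inflammatory genes. Hs3st1 encodes the sulfotransferase that gives heparan sulfate its antithrombin binding site. Its intensity was 28.8, 31.0 and 33.0 in CTL, 40.25, 34.1 and 33.4 in LPS, 32.9, 29.6 and 31.4 in HPO and 114, 130.5 and 122 in COMB. The first 3 groups lay within 28.8 to 40.25 and COMB above them, with an interaction of 1.72 ± 0.14 (SE, adjusted p = 6.16e-04). Ptpn18, a tyrosine phosphatase gene, had 1.46 (adjusted p = 0.0206) and 1.14 in its second probe set (adjusted p = 0.0645). Ezr, which encodes ezrin, a link between membrane and actin, lay between 294 and 378 in all 9 arrays outside COMB and at 674, 938 and 717 in COMB (interaction 1.32, adjusted p = 0.0206).

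Foxp1 encodes a transcription factor that helps to keep T cells quiescent. It was 173, 160 and 173 in CTL, 92.2, 121 and 83.3 in LPS, 172, 209 and 202 in HPO and 273, 263 and 247 in COMB. LPS alone lowered it (adjusted p = 0.0143), whereas COMB was the highest group, an interaction of 1.21 ± 0.18 (SE, adjusted p = 0.0392). Its 4 other probe sets gave 0.05 to 1.08, and none of them passed.

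Terf2ip, a gene of the telomere-capping shelterin complex, had 1.16 (adjusted p = 0.0261), with 1671, 1836 and 1654 in COMB against 381 to 667 elsewhere. Parm1, a mucin-like gene, had 1.30 (adjusted p = 0.0206), and Kcne3, an accessory subunit of potassium channels, had 1.34 (adjusted p = 0.0206). Fam107a, a gene of an actin-associated protein, had 1.45 (adjusted p = 0.0396), and Liat1 had 1.18 (adjusted p = 0.0488). A second probe set disagreed for Kcne3 (-0.06) and for Fam107a (-0.34), and 3 other probe sets of Crb3 gave 0.86, 0.04 and 0.19, none of which passed. The other 5 called genes lay between 0.81 and 0.96, each under 2-fold. They were Tp53i11, Dynlt1 (a dynein light chain), Crb3 (an epithelial polarity protein), H6pd (which makes NADPH in the endoplasmic reticulum) and Slc20a1 (a phosphate importer). Called probe sets that do not represent their gene were those of Cmahp at 2.43, Ksr1 at 1.05, N4bp1 at 0.87 and Ifnar1 at -0.84.

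**Figure D3:**
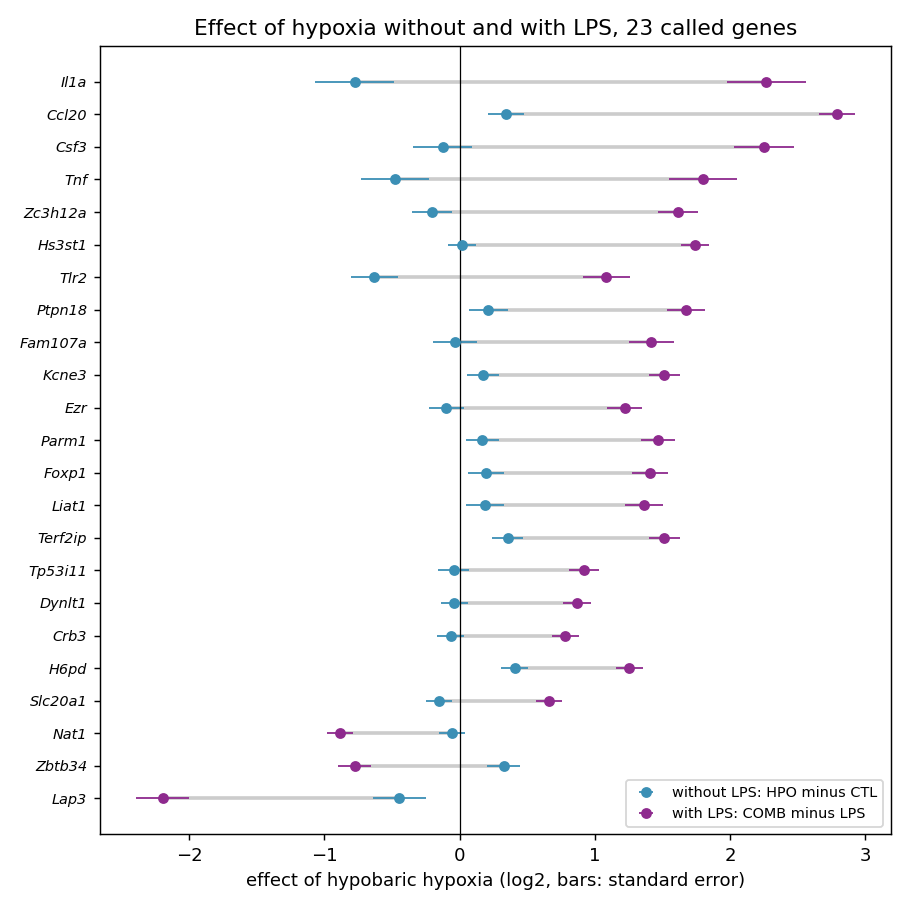
The x axis gives the effect of hypoxia on log2 intensity, without LPS (HPO minus CTL) and with LPS (COMB minus LPS), for the 23 called genes on the y axis, and bars are standard errors. Effects without LPS lie between -0.78 and 0.41, and those with LPS between 0.66 and 2.79 for the 20 higher genes and between -2.20 and -0.78 for the 3 lower genes.

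On the less than additive side, Lap3 encodes a leucine aminopeptidase that trims peptides. Its intensity was 408, 491 and 529 in CTL, 561.5, 472 and 629 in LPS, 412, 427 and 238 in HPO and 117.5, 125 and 116 in COMB. The COMB pools were tightly grouped under all others, at 0.297 times the predicted 404, an interaction of -1.75 ± 0.28 (SE, adjusted p = 0.0411). Zbtb34 encodes a zinc finger protein and was 118, 121.5 and 135 in CTL, 102, 111 and 104 in LPS, 132, 160.3 and 180.4 in HPO and 69.2, 57.8 and 57.4 in COMB. HPO overlapped CTL (0.33, adjusted p = 0.393), COMB lay under every LPS pool, and the interaction was -1.10 ± 0.17 (SE, adjusted p = 0.0396). Nat1, an arylamine acetyltransferase gene, lay between 249 and 335 outside COMB and at 171, 165.5 and 162 in COMB, with -0.83 (adjusted p = 0.0497) and -0.47 in its second probe set (adjusted p = 0.355). Lap3 and Zbtb34 were called in 3 and Nat1 in 2 of 12 omissions.

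The next lowest genes did not pass. Heph, an iron-oxidizing ferroxidase gene, had -2.01 (adjusted p = 0.195), Slbp, which binds histone mRNA, had -1.71 (adjusted p = 0.161), and Mnda, a myeloid nuclear gene, had -1.60 (adjusted p = 0.215) with 1.92 in a second probe set. Cacybp had -1.32 (adjusted p = 0.0911). It was 705, 744 and 888 in CTL, 1709, 1325 and 2298 in LPS, 679, 694 and 448 in HPO and 484, 589 and 529 in COMB, so the rise that LPS gave (adjusted p = 0.0196) was not seen under both exposures. Sh3bgrl1 had -1.50 (adjusted p = 0.206), Fabp4, a fatty acid carrier of alveolar macrophages, -1.39 (adjusted p = 0.139) and Angpt1, a ligand of the receptor TIE2, -1.29 (adjusted p = 0.0645).

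Cacybp heads a group. Of 28 heat shock proteins and cochaperones, 0 were called. At an unadjusted p under 0.05, 0 were higher and 6 lower (21.4%, against 5.2% of all genes), and the median was -0.26. Hsph1, a large heat shock protein, was 481, 521 and 520.1 in CTL, 1707, 1434 and 2263 in LPS, 328, 252 and 342 in HPO and 621, 645 and 654 in COMB. LPS pools were the highest and HPO pools the lowest, with an interaction of -0.73 (adjusted p = 0.198). The inducible gene Hspa1a was 156.5, 453.5 and 172 in CTL, 752, 719.5 and 541 in LPS, 89.1, 77.7 and 111 in HPO and 178, 132 and 137 in COMB. It rose with LPS alone (adjusted p = 0.0381) and was lower in COMB than in LPS (adjusted p = 0.00216), and its interaction was -0.84 (adjusted p = 0.499). Omitting CTL rats 5, 6 and 7, the pool at 453.5, gave -1.32 (adjusted p = 0.129). The cold-inducible gene Cirbp showed the opposite single effects, at -1.53 for LPS (adjusted p = 0.00928) and 1.15 for HPO (adjusted p = 0.104). Its interaction was 0.71 (adjusted p = 0.409) on this scale and below 0 on the linear scale, and 0.43 without LPS rats 8, 9 and 10. Other probe sets of Cirbp gave -0.38 and 0.12, so its interaction is uncertain.

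Genes of lipid handling also leaned down. Of 23 lipid droplet and cholesterol export genes, 0 were called. At an unadjusted p under 0.05, 1 was higher (4.35%) and 6 were lower (26.1%), against 8.42% and 5.2% of all genes. Their median was -0.20. Cidec, a lipid droplet protein, was 414, 349 and 435 in CTL, 251, 193 and 202 in LPS, 261, 215 and 344 in HPO and 102, 66.9 and 57.8 in COMB. Both single exposures gave lower values and COMB lay under all other pools, with an interaction of -0.97 (adjusted p = 0.206). Without the COMB pool of rats 2 and 3, limma called 3 of the 23 lower, beside 103 of all 12853 genes. Cidec was then at -1.20 (adjusted p = 0.0334) and Fabp4 at -1.55 (adjusted p = 0.0462). Of 18 genes of cholesterol synthesis, 0 were called and 4 were lower (22.2%) at an unadjusted p under 0.05. The lowest, Hsd17b7, had -0.61 (adjusted p = 0.317), and -0.145 in a second probe set.

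Of 37 hypoxia and HIF targets, 0 were called. At an unadjusted p under 0.05, 8 were higher (21.6%, against 8.42% of all genes) and 0 lower, and the median was 0.27. Ddit4, an inhibitor of mTOR, had the highest value, 1.82 (adjusted p = 0.291). Leaving out COMB rats 2 and 3 gave 2 called higher, beside 297 of all 12853 genes, and a median of 0.13. Then 9 were higher and 1 lower at an unadjusted p under 0.05. Leaving out CTL rats 5, 6 and 7 gave a median of 0.14. Hif1a itself had 0.30 (95% interval -0.15 to 0.75, adjusted p = 0.603), and 0.10 when CTL rats 5, 6 and 7 were omitted. Of 17 glycolysis enzymes, 0 were called and 8 were higher (47.1%) at an unadjusted p under 0.05, with a median of 0.32. Hk1, the hexokinase that opens glycolysis, was 153, 179 and 157 in CTL, 118, 150.2 and 130.1 in LPS, 156, 135 and 151 in HPO and 182, 317 and 294 in COMB. Its COMB pools were above all others, and the interaction of 1.10 (adjusted p = 0.103) passed at 1.35 (adjusted p = 0.0046) when the COMB pool of rats 2 and 3 was omitted, although a second, dim probe set of Hk1 gave 0.00.

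Among interferon-related genes, 9 of 35 were higher (25.7%) and 1 lower (2.86%) at an unadjusted p under 0.05, against 8.42% and 5.2% of all genes. None was called, and the median was 0.67. Cxcl11, a CXCR3 ligand, was 15.4, 1001 and 19.2 in CTL, 169, 143 and 162 in LPS, 142, 25.5 and 24.9 in HPO and 355, 787 and 1592 in COMB. A single CTL pool set its control mean, and the interaction was 2.85 (adjusted p = 0.561) with that pool and 0.93 without it. Cxcl10 moved from 2.44 to 0.88 in the same way, and Irf7, a regulator of interferons, from 0.41 to -0.60. Of 15 genes that supply peptides to MHC class I, Lap3 was called lower. At an unadjusted p under 0.05, 7 were higher (46.7%), and the median was 0.37. Of 10 MHC class II genes, 0 were called and 5 were higher (50%) at that p, with a median of 0.97. The highest of these, RT1-Ba, had 3.99 (adjusted p = 0.154), and its 3 other probe sets lay between -0.61 and 2.50.

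**Figure D4:**
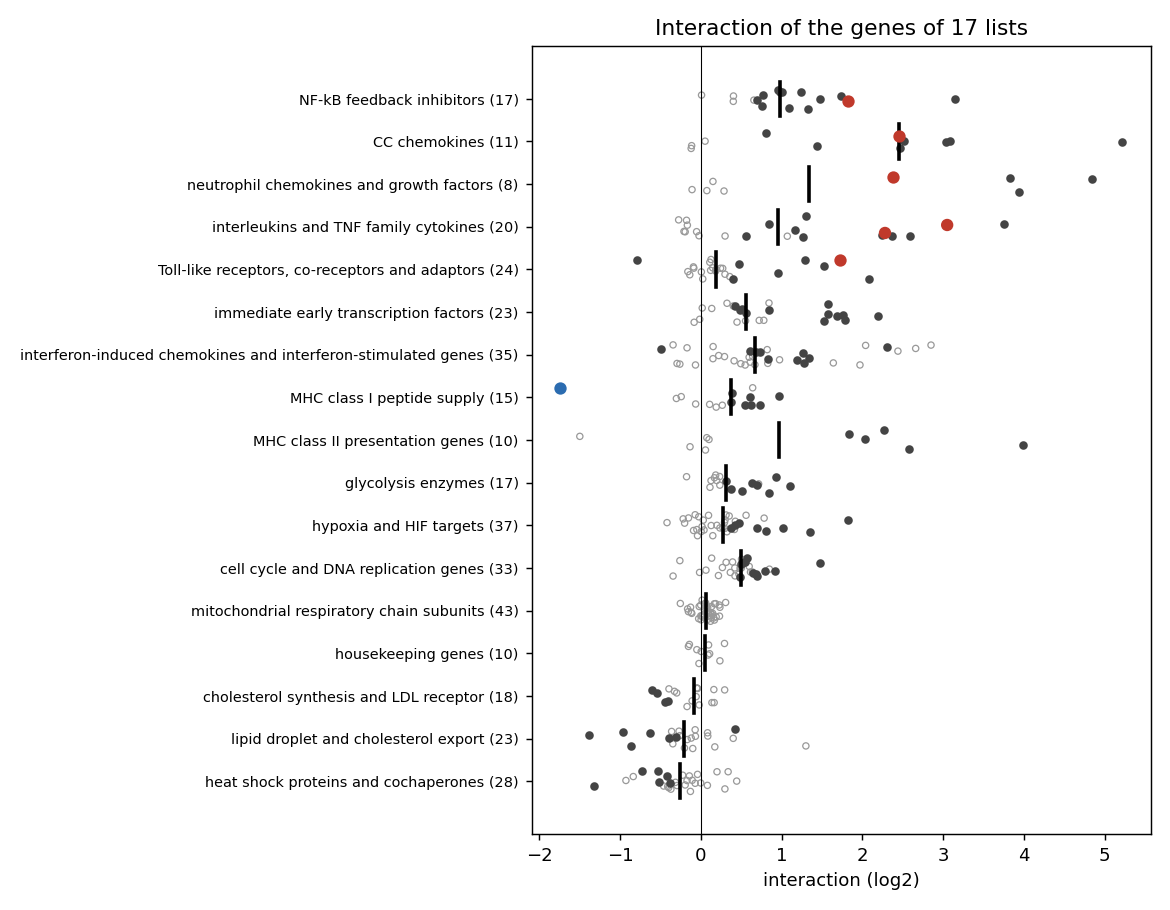
Each point is the interaction (x axis, log2) of 1 gene in 17 lists, with the number of genes measured beside the list name. Large colored points are called genes, filled dark points have an unadjusted p under 0.05, open points have not, and the bar is the median, which lay between -0.26 for heat shock proteins and 2.45 for CC chemokines.

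Other lists held 0 called genes. The 23 immediate early transcription factors had 12 higher (52.2%) and 0 lower at an unadjusted p under 0.05, against 8.42% and 5.2% of all genes. Their median was 0.56, with Klf2 at 2.19 (adjusted p = 0.0845), whose brightest probe set was not matched by the others (-0.07 to 1.06). The 33 cell cycle genes had 11 (33.3%) and 0 and a median of 0.50, led by the mitotic kinase gene Aurkb at 1.48 (adjusted p = 0.185). The 26 glutathione and NRF2 genes had 10 (38.5%) and 1 (3.85%) and a median of 0.26, led by the cystine importer gene Slc7a11 at 1.75 (adjusted p = 0.126). Genes of basic cell functions lay near 0. The 43 respiratory chain subunits had a median of 0.07 with Cox8a at most at 0.31, the 30 proteasome subunits a median of 0.10 with Psmc6 lowest at -0.61, and the 10 housekeeping genes a median of 0.05 with Ywhaz at 0.29. The largest values of the further lists, none of which passed, were 1.58 for Atf3 (unfolded protein response), 1.18 for Rora (clock genes), 0.97 for Mt2A (glucocorticoid-induced genes), 1.94 for Akr1b8 (xenobiotic enzymes) and 1.60 for Serpinb2 (complement and coagulation). A second probe set of Rora gave -0.19. Over all genes the interval of the interaction lay within 2-fold of additivity for 10973 genes (85.4%), and among the 357 genes called in LPS against CTL it did so for 269 (75.4%).

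Markers of other cell types moved with the interaction. Neutrophil markers, of which 12 of 20 were measured, summed to between 4236 and 6280 in CTL, 5385 and 6322 in LPS, 3295 and 4109 in HPO and 10100 and 14490 in COMB. Of them, 6 were higher (50%) and 0 lower at an unadjusted p under 0.05, against 8.42% and 5.2% of all genes. Their median was 1.24. S100a9, an abundant protein of neutrophils, had 3.27 (adjusted p = 0.477) and 1.34 without the CTL pool of rats 5, 6 and 7. T and NK cell markers, 21 of 26 measured, summed to between 915 and 4226 in CTL, 967 and 1416 in LPS, 1249 and 1632 in HPO and 1815 and 10350 in COMB. Of these, 16 were higher (76.2%) and 0 lower at an unadjusted p under 0.05, with the highest median of the cell type lists, 2.43. Cd3e, a chain of the T cell receptor complex, was 67.1, 233 and 187.5 in CTL, 69.9, 134 and 58.3 in LPS, 168, 156 and 145 in HPO and 213, 1319 and 762 in COMB. The COMB pool of rats 2 and 3 lay within the CTL range. Without it 13 of the 21 were called higher, beside 297 of all 12853 genes. Cd3e was then at 3.48 (adjusted p = 0.0192) and the granzyme gene Gzma at 6.44 (adjusted p = 0.034) in place of 4.91 (adjusted p = 0.285). The CTL pool of rats 5, 6 and 7 had the CTL sum of 4226. Without that pool 0 of the 21 were called, 11 were higher at an unadjusted p under 0.05 and the median was 1.91. Cd3e was then at 2.39 (adjusted p = 0.401) and Gzma at 3.58 (adjusted p = 0.477).

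Airway epithelium was represented too. Secretory markers, 19 of 22 measured, summed to between 9175 and 12560 in CTL, 18820 and 21700 in LPS, 23050 and 23600 in HPO and 30330 and 43540 in COMB, and ciliated markers, 14 of 25 measured, to between 876 and 942, 1087 and 1489, 1113 and 1239, and 2380 and 4090 in the same order. For secretory markers the median was 0.44, with 6 higher (31.6%) and 1 lower (5.26%) at an unadjusted p under 0.05. For ciliated markers it was 0.92, with 8 higher (57.1%) and 0 lower, where all genes gave 8.42% and 5.2%. Tekt1, a protein of cilia, had 1.54 (adjusted p = 0.163) and Krt8, a keratin of simple epithelia, 1.63 (adjusted p = 0.139). Markers of alveolar macrophages leaned the other way, with 6 of 13 lower (46.2%) and 2 higher (15.4%) at an unadjusted p under 0.05. Their median was -0.28, and 4 of these 13 also belong to the lipid list. The highest value of this list was that of Car4 at 4.20 (adjusted p = 0.127), which was 5.15 (adjusted p = 0.00905) when COMB rats 2 and 3 were omitted. It was 3.49 (adjusted p = 0.245) without CTL rats 5, 6 and 7 and 3.40 without COMB rats 10 and 11. Car4 intensity was 15.1, 72.3 and 16.4 in CTL and 64.9, 744 and 309 in COMB, so these groups overlapped. Further lists had their largest values in Ly6c for monocytes (1.98), Ms4a1 for B cells (2.55), Hopx for alveolar epithelium (1.36), Dcn for fibroblasts (1.15) and Pf4 for platelets (1.03), and none passed. Single pools moved most of these. Omitting CTL rats 5, 6 and 7 gave 1.11 for Ly6c, and Hopx was 0.88 when LPS rats 2, 3 and 6 were omitted. Dcn was 0.08 and Ms4a1 3.64 (adjusted p = 0.0361) with COMB rats 2 and 3 omitted, and Dcn was 0.62 without LPS rats 5, 7 and 11 and 1.99 without COMB rats 10 and 11. Pf4 lay at 0.50, 1.68 and 0.56 when LPS rats 2, 3 and 6, LPS rats 5, 7 and 11 and COMB rats 10 and 11 were omitted in turn. In bulk RNA a change in the share of a cell type and a change in RNA per cell cannot be told apart, and the part of cell composition in the interactions above was not tested.

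**Figure D5:**
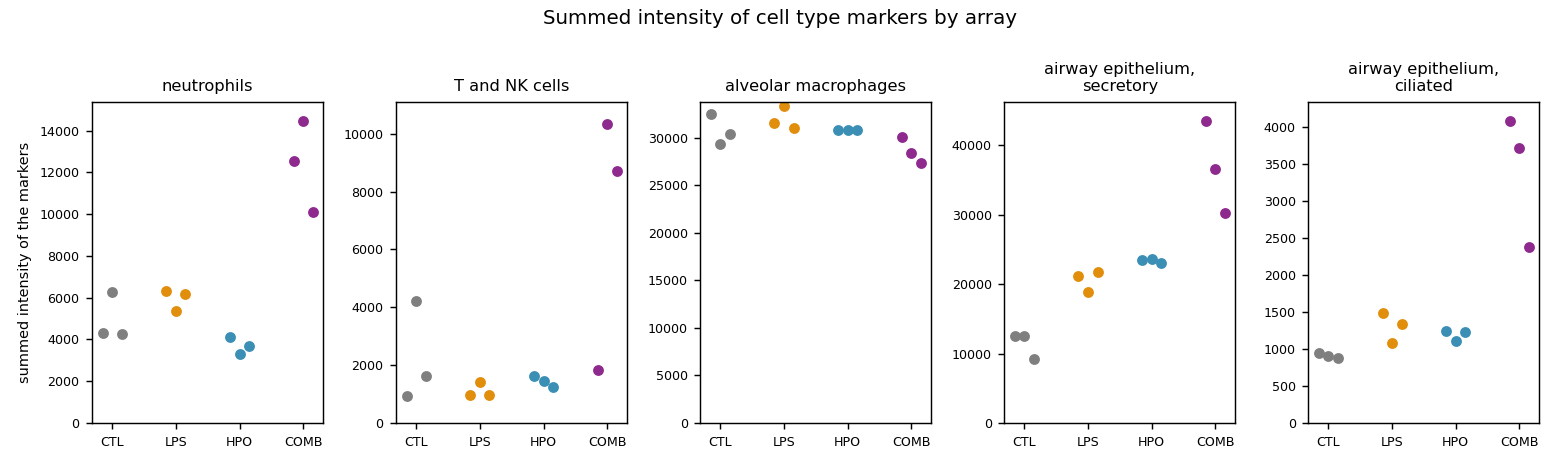
Points give the summed intensity (y axis) of the measured markers of 5 cell types in each of the 12 arrays, by group. Neutrophil and airway sums are highest in the 3 COMB pools. The T and NK cell sum is high in 2 COMB pools but 1815 in that of rats 2 and 3. The alveolar macrophage sum is 27340 to 30080 in COMB, under all LPS and HPO pools (30780 to 33290), and overlaps CTL (29310 to 32440).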

How the data were processed

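Total RNA of BALF cells was pooled within groups and hybridized to Affymetrix Rat Genome 230 2.0 arrays. The authors deposited linear intensities, 1 for each probe set of an array. The study names its software and a filter at the 20th percentile, and the normalization method is not given in the sources used here. The deposited table held all 31099 probe sets, 57 of them controls, which were left out. Groups came from the sample labels, whose titles write COMP for COMB.

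Values were taken as log2 of the intensity plus 1. Means of the 4 groups were fitted to 25692 probe sets with limma 3.58.1 (R 4.3.3, data.table package, version 1.17.8) (8 residual and 3.94 prior degrees of freedom), and p values of the interaction were adjusted by the Benjamini-Hochberg method with a threshold of 0.05. The fit was tested on simulated data. Each gene was represented by the probe set of highest mean that names it alone (20832 probe sets name 1 gene, 436 several and 9831 none). With 3 arrays a group, their number limits the precision.

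Named were up to 15 called genes per direction, with the next lowest at an unadjusted p under 0.01 to make 10, the genes the study names, and of each of 38 lists up to 4 called genes or else the largest value. The called genes outside these limits are named too. Il6 did not pass the filter. Members and lists were chosen with earlier results of these data known. Alternatives were quantile normalization, centring, pseudocounts of 0 and 16, 3 other filters, array and rat-number weights, a trended robust fit, no moderation, a replicate block by shared rat numbers, 1 probe set per gene, the linear scale, a fold threshold and the omission of each array. The omission of 2 pools together was chosen after the data were seen. Promoters came from a RefSeq table of build GRCr8.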

Additional observations from a re-analysis of the deposited data

Results flagged for a closer look

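Each called gene is listed here because the effect of hypoxia differed between rats given LPS and rats not given LPS by the test of that difference, the interaction term in limma. The cytokine and receptor genes were Il1a (3.05), Ccl20 (2.45), Csf3 (2.38), Tnf (2.28) and Tlr2 (1.72), with Zc3h12a (1.82) as the inhibitor. Genes of enzymes, channels and the cytoskeleton were Hs3st1 (1.72), Ptpn18 (1.46), Fam107a (1.45), Kcne3 (1.34), Ezr (1.32), Parm1 (1.30), Dynlt1 (0.91), Crb3 (0.85), H6pd (0.85) and Slc20a1 (0.81). Others above additivity were Foxp1 (1.21), Liat1 (1.18), Terf2ip (1.16) and Tp53i11 (0.96). Below it were Lap3 (-1.75), Zbtb34 (-1.10) and Nat1 (-0.83). Adjusted p values lay between 5.45e-04 for Ccl20 and 0.0497 for Nat1.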

How the results depend on the processing

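In place of 23 higher and 12 lower probe sets, limma called 39 and 44 after quantile normalization, 41 and 37 with a pseudocount of 16, 1201 and 915 with array weights, 62 and 52 in a trended robust fit, 66 and 32 on the linear scale and 3 and 4 without moderation of the variance. The lower count alone moved by over 1.5 times with the filter at the 50th percentile (23), with weights by the number of rats (19) and with a fold of at least 2 beside the adjusted p (6). The replicate block by shared rat numbers gave 69 and 43, with all 23 and 12 among them. The labels do not say what a number shared between groups means, so these numbers were not treated as pairs. Deviations of the pools in a block correlated between -0.0076 and 0.26, and the correlation that the block fit used was 0.177. Leaving out each array gave 2 to 444 higher and 0 to 199 lower calls. In the 5 omissions with 0 lower calls in limma, 1262 to 1455 probe sets were lower at an unadjusted p under 0.05. With CTL rats 5, 6 and 7 and COMB rats 2 and 3 both left out, an alternative chosen after the data were seen, 346 and 87 were called. Centring, no pseudocount, no filter and the filter in all 12 arrays left both counts within 1.5 times. The fit of 1 probe set per gene counts genes, and it called 30 higher and 10 lower in place of 20 and 3. All 20 and 3 were among them, and the lower count moved by over 1.5 times. Of the 23 called genes, 22 stayed called after quantile normalization (Lap3 lost, adjusted p = 0.0585), 20 with centring (Nat1, Dynlt1 and Slc20a1 lost), 17 with no pseudocount (Liat1, Nat1, Tp53i11, Crb3, H6pd and Slc20a1 lost, each at an adjusted p of 0.0528), 18 on the linear scale (Csf3, Tnf, Fam107a, Lap3 and Zbtb34 lost) and 2 without moderation (Ccl20 and Hs3st1 kept). The cause of these differences was not tested.

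The probe sets past 2-fold with no test were 496 to 735 upward and 57 to 139 downward across the omissions, 38 downward with a pseudocount of 16 and 161 downward without both pools. All 23 called genes kept their sign in every alternative that tested them. Among the named genes signs turned only for Irf7, at -0.83 with array weights, -0.60 to 0.97 across the omissions (lowest without CTL rats 5, 6 and 7) and -0.50 when both pools were left out, for Cd14, at -0.0023 to 0.48 across the omissions (lowest without the same pool), for Dcn, at -0.27 without both pools, and for Cirbp, at -60.6 intensity units on the linear scale. None of these 4 genes was called. Of 38 list medians, 31 kept their sign under normalization, centring and all omissions. With 3 pools a group, the median half-width of a gene's 95% interval was 0.39 log2 units. This interval is not adjusted for the number of tests, and a call at the adjusted p needed a larger departure. The smallest interaction called for a gene was 0.81 (Slc20a1), so a smaller one that was not called is not shown to be absent.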
